A study of Mus musculus with 47 samples.

Results

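The 36 genes described here belong to the ATF4 stress and amino acid program: 7 transcription factors, 5 feedback and growth-signal regulators, 3 secreted stress signals, 6 enzymes of serine, glycine and one-carbon metabolism, 5 enzymes of asparagine, proline, cysteine and related metabolism, 7 amino acid transporters and 3 other targets. They were chosen by gene symbol, without a threshold on these data but with earlier results of these data known. Counts set beside shares of all genes therefore describe the list and do not test it. The list holds 36 of the 45650 gene names in the deposited tables. Atf4, Ddit3, Asns, Trib3 and Chac1 are given in each comparison, together with the genes of largest change. ATF4 is a transcription factor whose mRNA is translated more when the initiation factor eIF2 alpha is phosphorylated, which kinases do in response to amino acid shortage, unfolded proteins in the endoplasmic reticulum (ER), heme deficiency or viral RNA. With C/EBP partners it binds composite C/EBP-ATF elements in the promoters of genes for amino acid synthesis and uptake, and it also turns on its own feedback inhibitor, Trib3. In muscle cells the program is known for supplying amino acids for protein synthesis and, under mitochondrial stress, for releasing the hormones FGF21 and GDF15.

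PolyA RNA-seq was performed on mouse C2C12 cells, a myoblast line that leaves the cell cycle and fuses into multinucleated myotubes when serum is withdrawn, in 47 libraries of 16 groups. The question behind the series was what raised levels of the myogenic factor MyoD1 do to transcription during this transition. C2C12 iMyoD1 cells carried endogenous MyoD1 and a dox-inducible Halo-MyoD1 transgene, and were treated with doxycycline (dox) or vehicle for 24 h in growth medium (0 h of differentiation), or during 24, 48 or 120 h of serum starvation. At 120 h the iMyoD1 cultures were taken whole or passed through a 40 µm filter, which gave a myoblast-enriched flow-through and a myotube-enriched retentate. C2C12 iCdh23 and iMcam cells carried an inducible Cdh23 or Mcam, which encode cell adhesion proteins, and were treated with dox or vehicle during 48 h of serum starvation. Each group held 3 biological replicates, apart from the myoblast-enriched group with dox, which held 2 (replicates 2 and 3). Vehicle controls carried the same transgene as the dox groups, so dox and the induced gene cannot be told apart in any comparison. The iMyoD1 line was a polyclonal population in which a portion of nuclei responded to dox, transgenes were driven by a TRE3G promoter on PiggyBac vectors, and the filtered fractions were enriched and not pure.

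Totals per library lay between 15066338 and 50950674 estimated counts, with a median of 22837926, and levels are given as CPM, the counts scaled to library size with TMM factors over all libraries. The 0 and 24 h libraries formed 1 deposited table and carried no batch label, while all other groups carried the same batch label, so batch and time cannot be told apart between 24 and 48 h. Those other groups came in 2 further tables, 1 for whole iMyoD1 cultures at 48 and 120 h and 1 for iCdh23, iMcam and the fractions, so comparisons of iMyoD1 with the other lines at 48 h, and of whole cultures with fractions, also cross tables. Muscle markers followed the labels: the sum of 14 myotube genes lay below 20 CPM in all 12 libraries at 0 and 24 h, whereas the 3 libraries of iMyoD1 at 48 h with vehicle held 20373, 19607 and 18739 CPM. Defining markers of other cell types stayed near 0, with 16 of 22 under 1 CPM in every library, Adipoq, Ptprc, Pecam1 and Snap25 among them, while Syt1 reached 35.5 CPM, Lipe 26.0 CPM and Csf1r 15.1 CPM. The induced genes did not check the labels in full. Mcam lay between 17.0 and 19.5 CPM in iMcam with vehicle and between 69.2 and 74.5 CPM with dox, but it was also higher with dox in iCdh23 (45.7 to 54.5 CPM against 4.70 to 7.55 CPM). Cdh23 lay between 343 and 444 CPM in iCdh23 with vehicle and between 416 and 566 CPM with dox, with overlap. With vehicle it was already far above iMcam with vehicle (5.53 to 8.81 CPM) and iMyoD1 at 48 h with vehicle (8.48 to 10.2 CPM). In whole iMyoD1 cultures mean Myod1 was higher with dox at 0 h (192 against 181 CPM, with overlap), but lower in every library labelled dox than in every library labelled vehicle at 24 h (117 against 139 CPM), 48 h (304 against 388 CPM) and 120 h (90.7 against 276.5 CPM). Myod1 RNA thus did not follow the label of an induced MyoD1 after 0 h. By contrast Mcam and Cdh23 were higher in every dox library than in every vehicle library of these cultures at all 4 times, with mean Mcam at 20.7 against 8.55 CPM at 0 h, 16.85 against 2.615 CPM at 24 h and 33.1 against 1.85 CPM at 120 h, and mean Cdh23 at 3.31 against 0.265 CPM at 24 h. Whether transgene reads were counted under Myod1 is not given in the sources used here, and every direction in iMyoD1 refers to the libraries labelled dox and vehicle. In GRCm38, Atf4 lies at chr15:80255184-80257541 (+ strand), Ddit3 at chr10:127290774-127296288 (+), Asns at chr6:7675169-7693254 (−), Trib3 at chr2:152337422-152344032 (−) and Chac1 at chr2:119351229-119354381 (+). Exons of 6 of the 36 genes overlap those of a coding gene on the opposite strand, by 32 to 82 bases for Shmt2, Ddit3 and Atf5, 312 for Cebpb, 1056 for Aldh1l2 and 1429 for Slc6a9, and whether counting used the strand is not given in the sources used here.

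Within-group spread of the program was small in most groups and large in 3. The sum of the 36 genes differed between replicates by at most 1.28 times in 12 groups and by 1.82 times in the myoblast-enriched group with vehicle. It differed by 3.72 times in iCdh23 with vehicle, where replicate 3 stood apart (8383 CPM against 2253 and 2498 CPM). It also differed by 5.17 times in the myotube-enriched group with dox, where replicate 2 stood apart (10867 CPM against 2129.8 and 2102 CPM), and by 2.97 times in the myotube-enriched group with vehicle. Replicate 3 of the myotube-enriched group with dox was also low in myotube genes, with a sum of 7462 CPM against 23360 and 31469 CPM in the other 2 libraries. Main results that rest on iCdh23 vehicle replicate 3 are given with and without it.

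The composite element was searched for as TGATGNAA on both strands of RefSeq promoters (GRCm38.p6), which were at hand for 31 of the 36 genes. It was present within the 250 bases before the start site in 10 of the 31 (32.3%), against 3.91% of 27025 genes with a window of the same length. Where a gene had windows for several start sites, a match in any of them was counted. The 10 were Atf3, Asns, Chac1, Pycr1, Pck2, Vldlr, Slc7a11, Nupr1, Fgf21 and Herpud1. The stretches of 6 promoters are shown because the levels of their genes in single libraries are given in the comparisons, with the match in capitals and with sequence on the strand of the gene. They encode the stress-induced repressor ATF3, asparagine synthetase, the glutathione-degrading enzyme CHAC1, the lipoprotein receptor VLDLR, the cystine transporter xCT and the hormone FGF21.
Atf3, chr1:191183396-191183483 (− strand): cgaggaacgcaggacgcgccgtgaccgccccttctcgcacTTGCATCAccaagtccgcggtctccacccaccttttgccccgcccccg
Asns, chr6:7693210-7693272 (− strand): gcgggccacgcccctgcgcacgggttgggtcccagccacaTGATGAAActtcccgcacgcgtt
Chac1, chr2:119351009-119351096 (+ strand): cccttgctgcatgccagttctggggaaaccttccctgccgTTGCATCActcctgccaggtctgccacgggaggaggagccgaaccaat
Vldlr, chr19:27216780-27216867 (+ strand): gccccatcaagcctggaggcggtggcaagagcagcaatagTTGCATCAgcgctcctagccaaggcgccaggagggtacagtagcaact
Slc7a11, chr3:50443614-50443719 (− strand): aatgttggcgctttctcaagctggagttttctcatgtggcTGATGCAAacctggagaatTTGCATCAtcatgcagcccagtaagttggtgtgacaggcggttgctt
Fgf21, chr7:45615582-45615669 (− strand): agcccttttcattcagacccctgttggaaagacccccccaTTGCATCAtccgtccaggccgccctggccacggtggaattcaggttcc
The match began 23 bases before the start of Asns, 110 before that of Atf3, 139 before that of Fgf21 and 193 before that of Chac1. For Vldlr it began 200 bases before the downstream of its start sites, and the window of the upstream start held no match. Slc7a11 held 2 matches, at 66 and 47 bases. Over all 300 bases, which reach past the start, 12 genes held it (38.7%, against 4.51% of all), with Trib3 and Slc1a4 added. The shorter core TGATG was common everywhere, in 48.4% of the 31 and 38.0% of all promoters. A match describes letters in the window, and no binding was measured here.

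**Figure D1:**
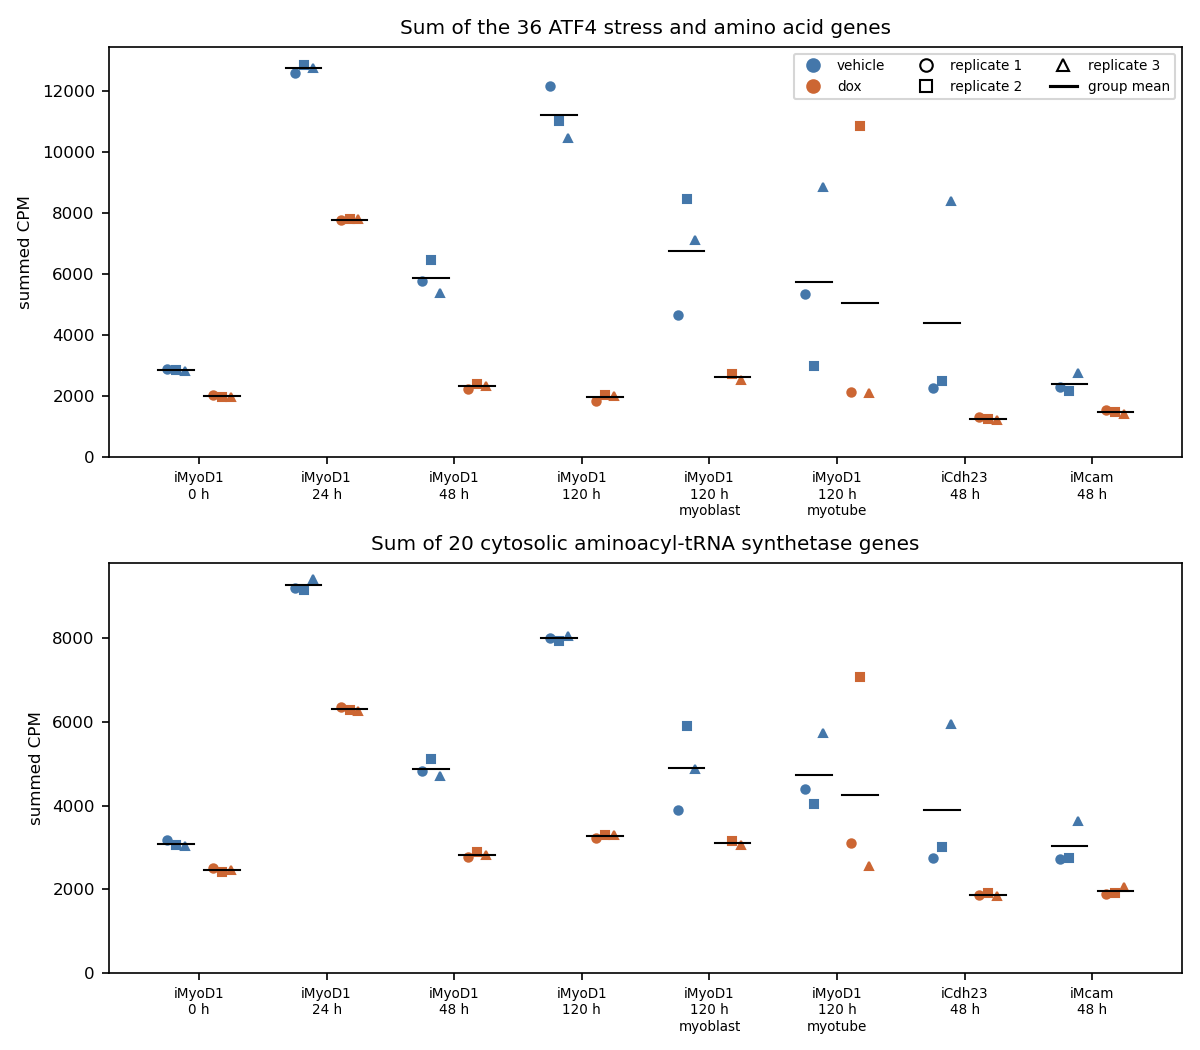
Summed CPM (linear axis from 0) of the 36 genes of the ATF4 program (top) and of 20 cytosolic aminoacyl-tRNA synthetase genes (bottom) in each library, by group. Points are libraries, with shape marking the replicate and colour marking vehicle or dox, and lines are group means; the 24 h and 120 h vehicle groups of iMyoD1 stand highest, and 1 library of iCdh23 with vehicle and 1 of the myotube-enriched group with dox stand apart from their replicates.

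In vehicle-treated iMyoD1 cells the program was low in growth medium, rose within 24 h of serum withdrawal, was lower at 48 h and was high again at 120 h. The summed level was 2892, 2832 and 2826 CPM at 0 h and 12613, 12871 and 12780 CPM at 24 h, with no overlap between the times. It was 5780.3, 6454 and 5375 CPM at 48 h and 12175, 11022 and 10454 CPM in whole cultures at 120 h. Of the 36 genes, 24 had their highest group mean at 24 h with vehicle and 11 at 120 h with vehicle in whole cultures. Cebpb had it in the myoblast-enriched group with vehicle. Per the study's methods, cultures kept in growth medium were seeded at a lower density. Differentiation medium held less serum, of another species, with insulin, transferrin and selenium added, and was not replaced. These differences and time cannot be told apart.

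From 0 to 24 h, 33 of 36 genes rose over 2-fold and none fell (edgeR quasi-likelihood test, Benjamini-Hochberg adjusted p under 0.05, called hereafter), with a median log2 fold change of 2.56. Over all genes tested the median lay between -0.049 and 0.051 in each comparison. The background was 9.49% of 13632 genes called higher and 16.7% called lower, and without the fold threshold all 36 were higher, against 37.3% of genes. The largest rises were of Fgf21, Atf3 and Gdf15. Fgf21, a hormone released by stressed tissue, went from 0.486, 0.306 and 0.255 CPM at 0 h to 88.5, 104 and 106 CPM at 24 h (log2 fold change 8.18 ± 0.15 (SE), adjusted p = 4.89e-14). The bZIP factor gene Atf3 went from 0.426, 0.663 and 0.662 CPM to 85.8, 84.3 and 78.6 CPM (log2 fold change 7.13 ± 0.12 (SE), adjusted p = 3.87e-14). Both genes were near the limit of detection before serum withdrawal, with 5 to 8 counts per library for Fgf21 and 7 to 13 for Atf3. Gdf15, which encodes a circulating cytokine of cell stress, went from 3.89, 2.6 and 5.65 CPM to 225, 217 and 228 CPM (log2 fold change 5.79 ± 0.14 (SE), adjusted p = 4.61e-13). Atf4 itself rose 5.26-fold, from 210.2, 215 and 231 CPM to 1120, 1106 and 1190 CPM (log2 fold change 2.39 ± 0.062 (SE), adjusted p = 8.52e-13). Its target Trib3, a pseudokinase that restrains ATF4 activity, rose 23.6-fold from 13.6, 11.6 and 11.6 CPM to 292, 272 and 295 CPM (log2 fold change 4.56 ± 0.078 (SE), adjusted p = 3.87e-14). No library at 0 h reached the level of any library at 24 h for these 5 genes. Chac1 rose from 9.18, 10.4 and 9.72 CPM to 205, 219 and 204 CPM (log2 fold change 4.43 ± 0.073 (SE), adjusted p = 3.84e-14). Ddit3, which encodes the pro-apoptotic factor CHOP, rose from 16, 14.5 and 13.8 CPM to 184, 220.3 and 211 CPM (log2 fold change 3.81 ± 0.085 (SE), adjusted p = 2.14e-13). Asns rose from 148, 139 and 133 CPM to 889, 901 and 961 CPM (log2 fold change 2.73 ± 0.064 (SE), adjusted p = 3.65e-13). The 3 genes under 2-fold were Cebpb, Cebpg and the neutral amino acid transporter gene Slc1a4, at log2 fold changes of 0.87, 0.94 and 0.68. Over the same interval 13 of 20 cytosolic aminoacyl-tRNA synthetase genes, whose products load amino acids onto tRNAs, rose, led by Wars (2.76) and Nars (2.39), and 10 of 12 proliferation genes fell. Of 9 myotube genes with enough counts to test 8 rose (median 2.34), from under 1 CPM on average, and of myoblast genes Cdh15 and Itga7 fell (-1.15 and -1.08), as did the glial gene Mbp (-1.46). The part of these markers in the result was not tested. In bulk libraries fewer cells of a type and less RNA per cell cannot be told apart.

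From 24 to 48 h in vehicle, a step across the batch, 22 genes fell and 1 rose, with a median log2 fold change of -1.25, where the background was 11.1% lower and 19.3% higher of 14017 genes. Atf3 fell most, from 85.8, 84.3 and 78.6 CPM at 24 h to 2.79, 4.29 and 2.29 CPM at 48 h (log2 fold change -4.69 ± 0.14 (SE), adjusted p = 2.32e-12). Aldh1l2, a mitochondrial enzyme of the folate cycle, fell from 956, 929 and 852 CPM to 61.3, 79.9 and 53.8 CPM (log2 fold change -3.76 ± 0.12 (SE), adjusted p = 7.55e-12). Gdf15 fell from 225, 217 and 228 CPM to 16, 22.3 and 14.6 CPM (log2 fold change -3.61 ± 0.12 (SE), adjusted p = 6.95e-12). Groups did not overlap for these 3 genes. Fgf21 was the 1 gene that rose, to 209, 219.7 and 184 CPM (log2 fold change 1.09 ± 0.081 (SE), adjusted p = 4.05e-08), opposite to Gdf15. Of the 5 genes followed throughout, Trib3 (-2.59 ± 0.099), Ddit3 (-2.96 ± 0.084), Asns (-1.93 ± 0.095) and Chac1 (-1.29 ± 0.088) fell, and Atf4 was lower by less than 2-fold (-0.76 ± 0.065). When all 16 groups shared 1 fit, Fgf21 was no longer called. Over the same step all 14 myotube genes rose (median 11.05), as did 5 of 6 myoblast and 5 of 12 proliferation genes. Of markers of other cell types Syt1 fell (-6.54) and Mbp (1.32) and Lipe (1.01) rose. The part of these markers in the result was not tested.

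From 48 to 120 h, 20 genes rose and 2 fell, with a median of 1.11, against 11.7% called higher and 18.1% called lower of 13785 genes. Aldh1l2 rose to 595, 578 and 682 CPM at 120 h (log2 fold change 3.29 ± 0.16 (SE), adjusted p = 5.76e-07). Atf3 rose to 29.5, 26.3 and 27.1 CPM (log2 fold change 3.19 ± 0.20 (SE), adjusted p = 2.31e-06). Vldlr, a lipoprotein receptor gene, rose from 36.7, 51.7 and 37.6 CPM to 318, 311 and 384 CPM (log2 fold change 3.05 ± 0.16 (SE), adjusted p = 7.97e-07). Groups did not overlap for any of the 3. The falls were of Cebpb, from 116, 116 and 105 CPM to 11.1, 8.45 and 6.06 CPM (log2 fold change -3.68 ± 0.19 (SE), adjusted p = 7.33e-07), and of Ddit4, an inhibitor of the growth kinase mTORC1, from 152, 171 and 156 CPM to 55.1, 49 and 40.7 CPM (log2 fold change -1.69 ± 0.12 (SE), adjusted p = 3.3e-06). Cebpb, which overlaps Tmem189 on the opposite strand, was at the same time point at 129.6, 147 and 153 CPM in the myoblast-enriched and 142, 56.9 and 158 CPM in the myotube-enriched libraries with vehicle, so its low level was seen in whole cultures of that time and in neither fraction. Trib3 (1.77 ± 0.22), Ddit3 (1.56 ± 0.15) and Asns (1.43 ± 0.14) also rose, while Chac1 (0.76 ± 0.19) and Atf4 (0.55 ± 0.088) were higher by less than 2-fold. Over the same step all 12 proliferation genes fell (median -2.47), 2 of 6 myoblast genes fell, and 3 of 14 myotube genes rose and 2 fell. Of 13 mitochondrially encoded mRNAs mt-Nd4 (1.13) and mt-Nd5 (1.47) rose and mt-Nd3 (-1.58) and mt-Nd6 (-5.25) fell. Markers of other cell types that changed included Itgam (1.18), which rose, and Csf1r (-2.33), Lipe (-1.13) and Mbp (-1.37), which fell. The part of these genes in the result was likewise not tested.

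Before differentiation, most of the program was lower with dox in iMyoD1, by less than 2-fold. Of 35 genes tested, 25 were lower with dox at an adjusted p under 0.05, 1 of these by over 2-fold, and 1 rose over 2-fold, with a median log2 fold change of -0.38. The background was 18.7% of 13550 genes lower at that threshold whatever the fold, 1.36% called lower and 2.91% called higher. Summed levels were 2892, 2832 and 2826 CPM with vehicle and 2030.1, 1972 and 1953 CPM with dox. Chac1 fell from 9.18, 10.4 and 9.72 CPM with vehicle to 4.88, 4.63 and 4.78 CPM with dox (log2 fold change -1.02 ± 0.13 (SE), adjusted p = 3.97e-05). Atf3 rose from 0.426, 0.663 and 0.662 CPM to 1.27, 1.53 and 1.62 CPM (log2 fold change 1.32 ± 0.33 (SE), adjusted p = 0.00637). The groups did not overlap for either gene, although Atf3 rested on 7 to 32 counts per library. Atf4 was at 210.2, 215 and 231 CPM and 156, 165 and 181 CPM (log2 fold change -0.38 ± 0.064 (SE), adjusted p = 0.000408). Ddit3 was at 16, 14.5 and 13.8 CPM and 11.9, 10.4 and 12.8 CPM (log2 fold change -0.32 ± 0.11 (SE), adjusted p = 0.0279). Asns was at 148, 139 and 133 CPM and 78.2, 79.7 and 68.2 CPM (log2 fold change -0.88 ± 0.067 (SE), adjusted p = 3.51e-07), and Trib3 at 13.6, 11.6 and 11.6 CPM and 7.46, 7.64 and 8.08 CPM (log2 fold change -0.66 ± 0.12 (SE), adjusted p = 0.000564). All 4 were lower in each dox library than in each vehicle library, a separation that was not counted over all genes at this time. Slc7a11 varied widely at this time, at 5.66, 3.11 and 27.8 CPM with vehicle and 22.3, 15.8 and 0.406 CPM with dox, and Fgf21 had too few counts to test (4 to 8 per library). When all 16 groups shared 1 fit, no gene was called and 4 of 36 had an unadjusted p under 0.05, and without vehicle replicate 2 the call of Chac1 was lost. Of marker genes in the same libraries, 4 of 5 myotube genes with enough counts to test were higher with dox (median 1.18), as was 1 of 6 myoblast genes (Cdh15, 1.06), and no proliferation gene was called. Their part in the result was not tested.

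At 24 h of differentiation, when the program was high in vehicle, it was lower with dox. All 36 genes had negative log2 fold changes, 35 of them at an adjusted p under 0.05 (background 31.7% of 14078 genes) and 12 by over 2-fold (background 5.14% lower, 8.03% higher), with a median of -0.77. Summed levels were 12613, 12871 and 12780 CPM with vehicle and 7762, 7802 and 7793 CPM with dox. Atf3 fell from 85.8, 84.3 and 78.6 CPM to 16.8, 17 and 15.6 CPM (log2 fold change -2.31 ± 0.064 (SE), adjusted p = 1.32e-10). Stc2, which encodes a secreted glycoprotein of stressed cells, fell from 41.3, 42.9 and 39.8 CPM to 9.4, 9.05 and 8.52 CPM (log2 fold change -2.18 ± 0.071 (SE), adjusted p = 4.5e-10). Fgf21 fell from 88.5, 104 and 106 CPM to 27.7, 29.6 and 32.1 CPM (log2 fold change -1.71 ± 0.077 (SE), adjusted p = 4.55e-09). Each dox library lay below each vehicle library for these genes, and the fitted group means differed by 4.95-fold for Atf3, 4.52-fold for Stc2 and 3.26-fold for Fgf21. Atf4 was at 1120, 1106 and 1190 CPM with vehicle and 632, 635 and 654 CPM with dox (log2 fold change -0.80 ± 0.057 (SE), adjusted p = 1.66e-07). Ddit3 fell from 184, 220.3 and 211 CPM to 95.7, 97 and 100.4 CPM (log2 fold change -1.04 ± 0.066 (SE), adjusted p = 6.76e-08). The remaining 3 of the 5 genes were lower by less than 2-fold without overlap. Asns was at 889, 901 and 961 CPM and 643, 671 and 692 CPM (log2 fold change -0.43 ± 0.058 (SE), adjusted p = 4.67e-05). Trib3 was at 292, 272 and 295 CPM and 177, 174 and 171 CPM (log2 fold change -0.69 ± 0.053 (SE), adjusted p = 3.6e-07). Chac1 was at 205, 219 and 204 CPM and 131, 122 and 122 CPM (log2 fold change -0.72 ± 0.055 (SE), adjusted p = 3.67e-07). Every dox library at 24 h, with 7762 summed CPM or more, lay above every vehicle library at 0 h. With all 16 groups in 1 fit 5 genes were called in place of 12, and without vehicle replicate 2 the call of Ddit3 was lost. Of 6 myoblast genes Cdh15 rose (1.25) and Myf5 fell (-2.96), and no myotube or proliferation gene was called. Their part in the result was not tested.

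The dox effect differed between 24 and 0 h for 3 genes of 36, all with the more negative effect at 24 h (background 5.47% of 14448 genes, in either direction, so the count was close to that of all genes). The difference in log2 fold change was -3.66 ± 0.23 (adjusted p = 4.93e-09) for Atf3, which rose with dox at 0 h and fell with it at 24 h. It was -1.73 ± 0.20 (adjusted p = 4.35e-06) for Stc2 and -1.02 ± 0.18 (adjusted p = 0.000281) for Vldlr, whose call was lost when any of 5 libraries was left out (0 h dox replicates 1 and 2, 0 h vehicle replicates 1 and 2, and 24 h vehicle replicate 1). With all 16 groups in 1 fit none of the 3 was called, and 2 of the 36 genes had an unadjusted p under 0.05.

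**Figure D2:**
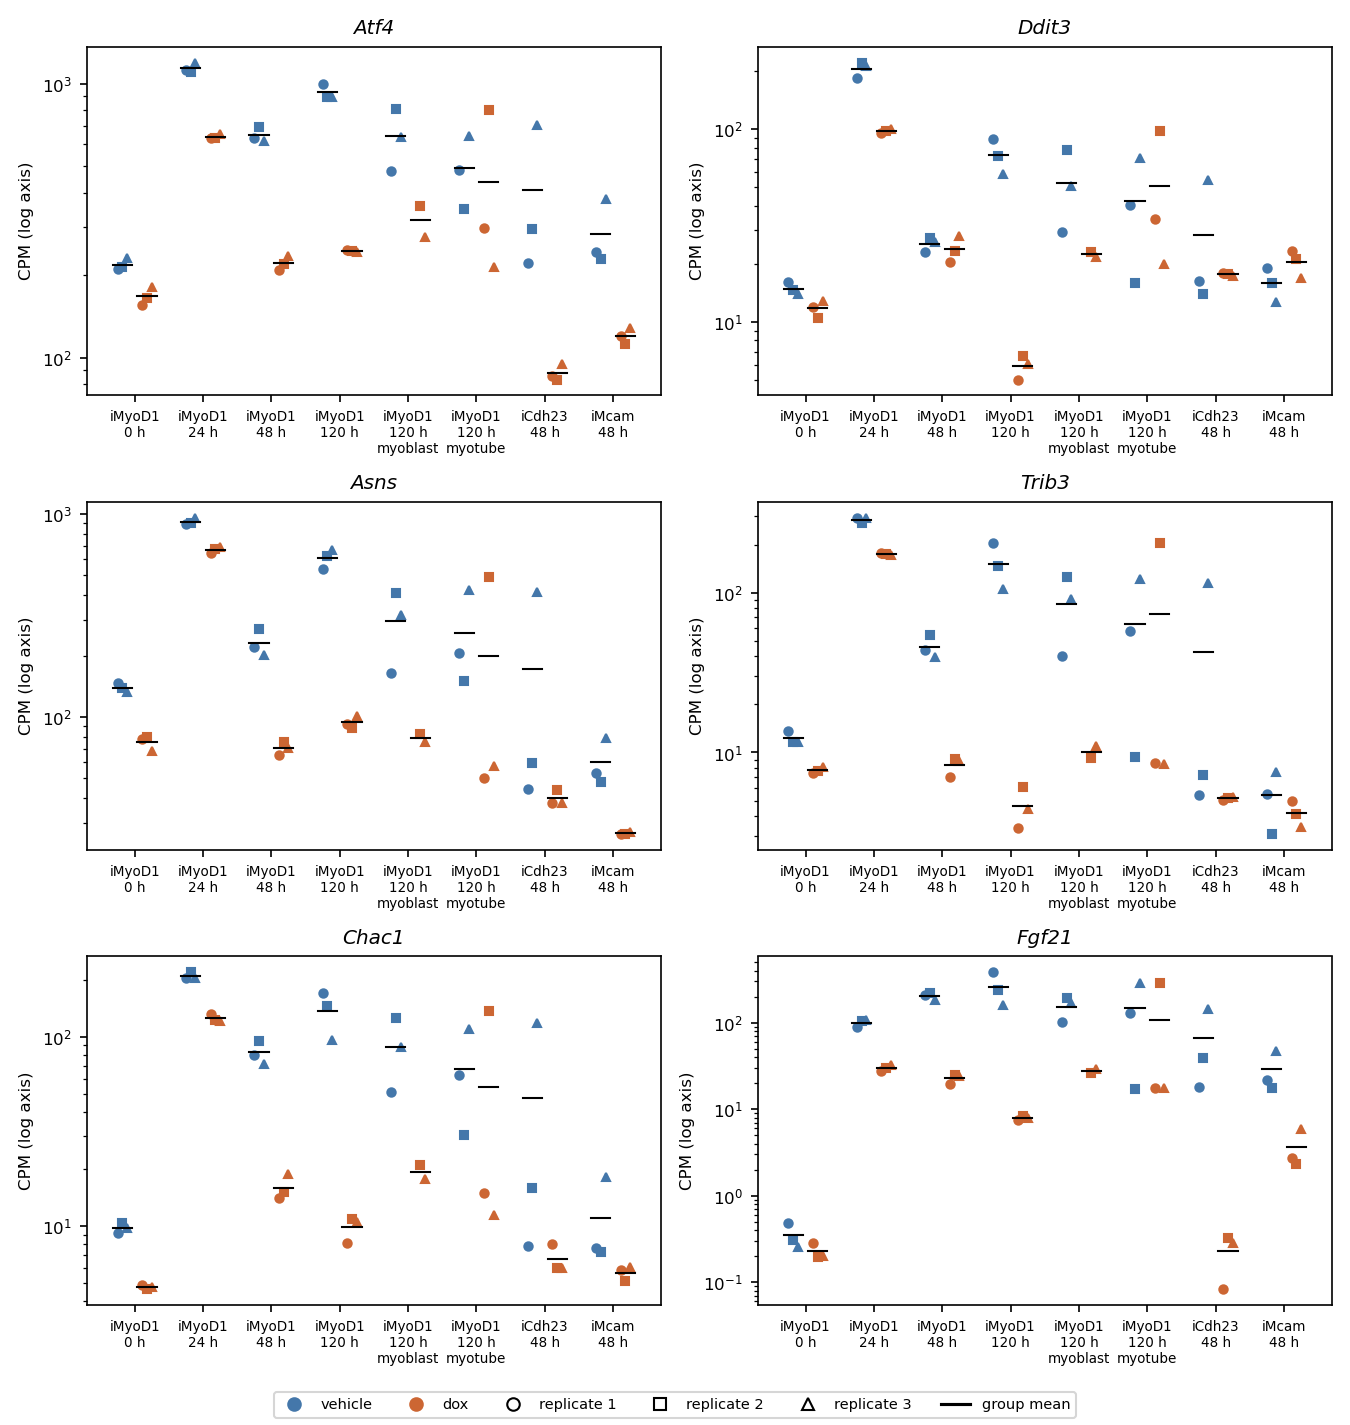
CPM (log axis) of Atf4, Ddit3, Asns, Trib3, Chac1 and Fgf21 in each library, by group. Points are libraries, with shape marking the replicate and colour marking vehicle or dox, and lines are group means; in iMyoD1 the vehicle and dox libraries separate at 120 h for all 6 genes, while in the myotube-enriched groups and in iCdh23 single libraries reach far from their replicates.

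At 48 h in iMyoD1, most of the program was lower with dox. 27 of 36 genes fell and none rose, with a median of -1.28 (background 8.46% lower and 5.93% higher of 13871 genes). Summed levels were 5780.3, 6454 and 5375 CPM with vehicle and 2225, 2382 and 2338 CPM with dox. The largest falls were of Fgf21, Stc2 and Atf3. Fgf21 fell from 209, 219.7 and 184 CPM to 19.3, 24.5 and 24.1 CPM (log2 fold change -3.18 ± 0.11 (SE), adjusted p = 1.6e-08). Stc2 fell from 8.72, 10.3 and 9.25 CPM to 1.34, 1.12 and 1.18 CPM (log2 fold change -2.96 ± 0.16 (SE), adjusted p = 1.7e-07). Atf3 fell from 2.79, 4.29 and 2.29 CPM to 0.287, 0.618 and 0.639 CPM (log2 fold change -2.63 ± 0.36 (SE), adjusted p = 0.000117), and no dox library of the 3 genes reached a vehicle library. Atf4 fell from 634, 694 and 619 CPM to 209, 220.1 and 234 CPM (log2 fold change -1.56 ± 0.075 (SE), adjusted p = 7.36e-08). Trib3 fell from 43.7, 54.4 and 39.5 CPM to 6.99, 9.07 and 8.9 CPM (log2 fold change -2.47 ± 0.14 (SE), adjusted p = 1.89e-07). Chac1 and Asns followed, again without overlap. Chac1 fell from 80.5, 95.4 and 72 CPM to 14, 15 and 18.8 CPM (log2 fold change -2.39 ± 0.13 (SE), adjusted p = 1.68e-07). Asns fell from 221, 273 and 203 CPM to 65.4, 75.6 and 70.5 CPM (log2 fold change -1.73 ± 0.11 (SE), adjusted p = 3.53e-07). Ddit3 was 1 of the 9 genes not called, at 23.1, 27.1 and 26 CPM with vehicle and 20.5, 23.2 and 27.9 CPM with dox (log2 fold change -0.11 ± 0.12 (SE), adjusted p = 0.452), where the groups overlapped. Myotube and proliferation genes were lower with dox in the same libraries: 12 of 14 myotube genes fell, with sums of 20373, 19607 and 18739 CPM with vehicle and 7687, 7868 and 7814 CPM with dox, and 9 of 12 proliferation genes fell, with sums of 1694, 1636 and 1687 CPM and 588, 610.2 and 597 CPM. Their part in the result was not tested.

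Between 48 and 24 h the dox effect differed for 8 genes (background 13.2% of 15079 genes), more negative at 48 h for 7. The differences were largest for Trib3 (-1.79 ± 0.15, adjusted p = 1.47e-07), the mitochondrial one-carbon enzyme gene Mthfd2 (-1.70 ± 0.10, adjusted p = 3.79e-09) and Chac1 (-1.69 ± 0.14, adjusted p = 2.05e-07). Mthfd2 was at 260.1, 269.8 and 271 CPM with vehicle and 219, 224 and 221 CPM with dox at 24 h, and at 238, 282 and 226 CPM and 63.6, 68.6 and 62.8 CPM at 48 h, so its vehicle levels overlapped between the times and its dox levels did not. In the other direction lay Slc7a11 (1.30 ± 0.43, adjusted p = 0.0231), which fell at 24 h (-1.54 ± 0.07) and was not called at 48 h (-0.23 ± 0.39). This call was lost with DESeq2 and without 48 h vehicle replicate 1, 48 h vehicle replicate 2 or 48 h dox replicate 2. None of the 8 was called with all 16 groups in 1 fit, where 1 of the 36 had an unadjusted p under 0.05, and time and batch cannot be told apart in this difference.

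In whole cultures at 120 h, all 36 genes fell with dox, and all 36 were without overlap between the 3 vehicle and 3 dox libraries, as were 55.4% of all genes tested. The median was -2.65, and the background was 8.8% called lower and 7.32% called higher of 13627 genes. Summed levels were 12175, 11022 and 10454 CPM with vehicle and 1830, 2036 and 2004 CPM with dox. Gdf15 had 13.9, 9.66 and 5.64 CPM with vehicle and 0, 2 and 2 counts in the dox libraries, a ratio of 179 times (95% interval 69.7 to 660, exact, counting error only). Trib3 fell from 204, 147 and 105 CPM to 3.38, 6.04 and 4.41 CPM (log2 fold change -5.06 ± 0.29 (SE), adjusted p = 2.18e-06). Fgf21 fell from 381, 238 and 161 CPM to 7.42, 8.3 and 7.87 CPM (log2 fold change -5.06 ± 0.30 (SE), adjusted p = 2.95e-06). Trib3 and Fgf21 thus lay 33.3-fold and 33.2-fold lower with dox. Chac1 fell from 169, 145 and 95.5 CPM to 8.12, 10.9 and 10.4 CPM (log2 fold change -3.81 ± 0.22 (SE), adjusted p = 2.27e-06). Ddit3 fell from 88.6, 72.8 and 58.3 CPM to 5.01, 6.6 and 6 CPM (log2 fold change -3.65 ± 0.18 (SE), adjusted p = 1.25e-06). Asns and Atf4 fell less. Asns went from 534, 619 and 668 CPM to 93, 88.8 and 102 CPM (log2 fold change -2.69 ± 0.11 (SE), adjusted p = 4.4e-07). Atf4 went from 997, 895 and 891 CPM to 246, 245 and 242 CPM (log2 fold change -1.93 ± 0.084 (SE), adjusted p = 5.66e-07). The smallest fall of the 36 was of Ddit4 (-1.17 ± 0.15). Of marker genes in the same libraries, 3 of 14 myotube genes and 3 of 6 myoblast genes fell (Itga7, Myod1 and Ncam1, at -1.88, -1.62 and -1.07), and 2 of 12 proliferation genes rose, with sums of 335, 366 and 331 CPM with vehicle and 607, 551 and 537 CPM with dox. The leukocyte marker Itgam was also higher with dox (2.38, mean 4.08 against 0.773 CPM), while Ptprc and Adgre1 stayed under 1 CPM in every library. Their part in the result was not tested. Every alternative analysis and every omission of a library left all 36 genes called lower.

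**Figure D3:**
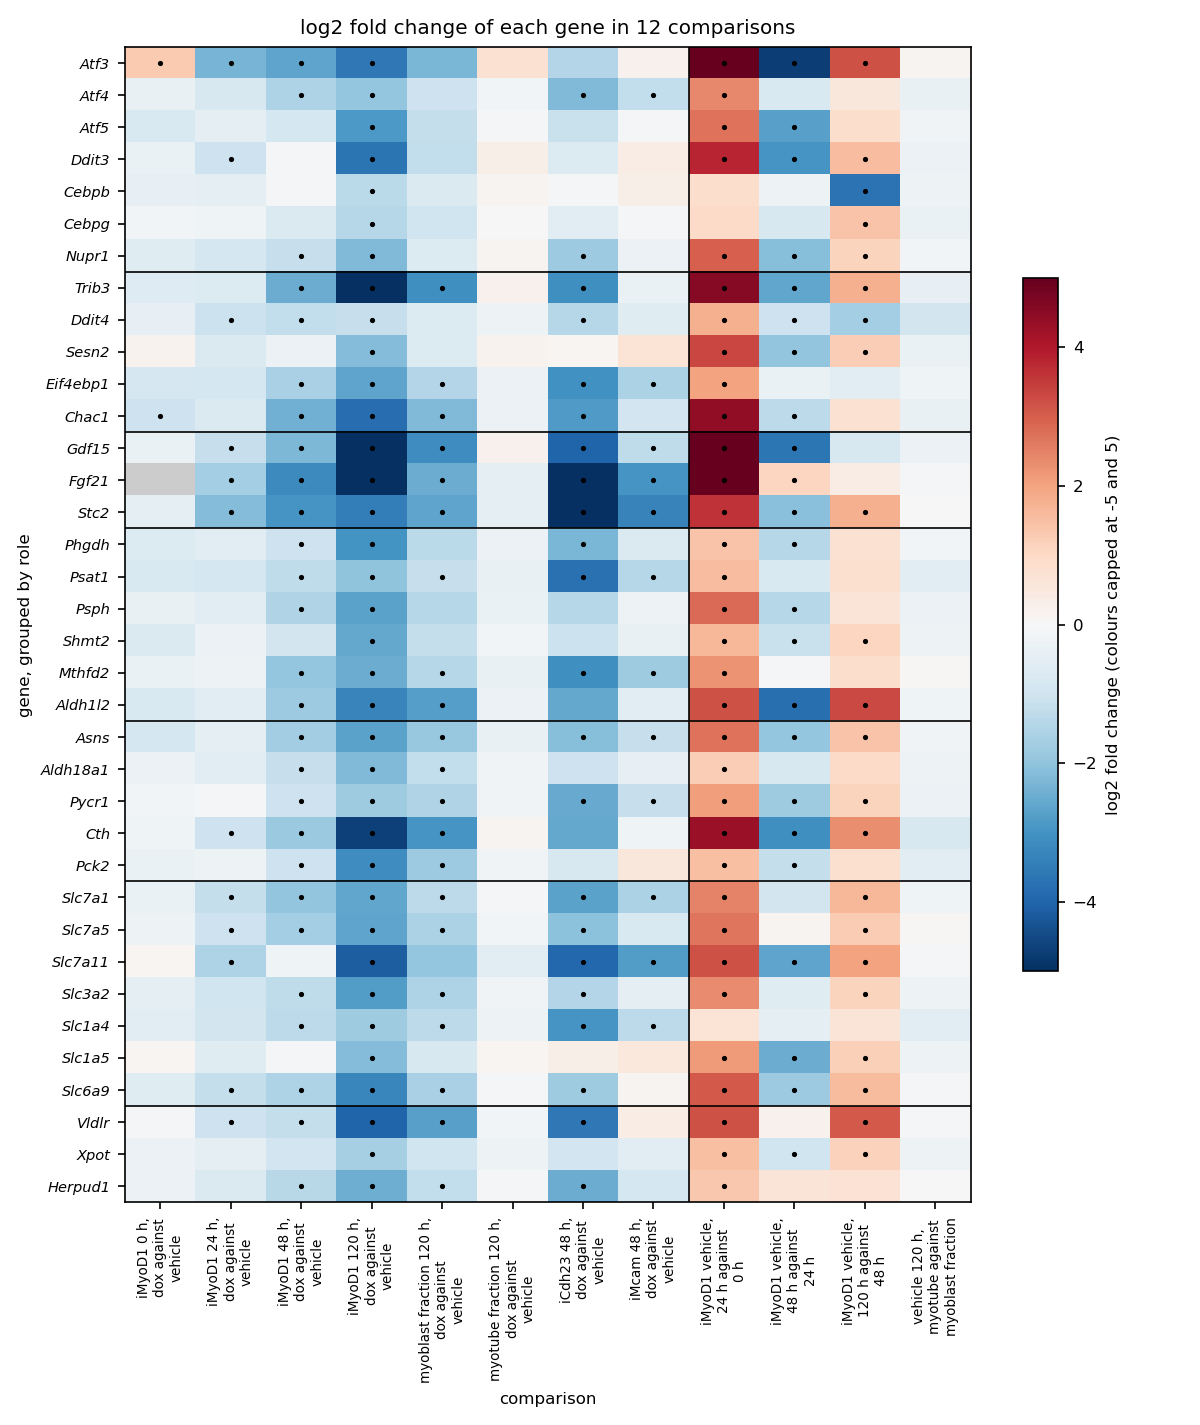
log2 fold change of each of the 36 genes (rows, grouped by role between lines) in 8 comparisons of dox with vehicle (left of the vertical line) and 4 comparisons within vehicle (right). Colours run from blue (lower in the group named before "against") to red (higher), dots mark genes at an adjusted p under 0.05 and over 2-fold, and grey was not tested; all 36 genes are blue with a dot at 120 h in whole cultures, and no gene has a dot in the myotube-enriched column.

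In the myoblast-enriched fraction 21 of 36 genes fell with dox and none rose, with a median of -1.44 (background 1.82% lower and 1.21% higher of 14249 genes). Summed levels were 4663, 8468 and 7117 CPM in the 3 vehicle libraries and 2713 and 2517 CPM in the 2 dox libraries. Gdf15 fell from 21.3, 52.5 and 41.3 CPM to 3.9 and 4.9 CPM (log2 fold change -3.12 ± 0.40 (SE), adjusted p = 0.0171). Trib3 fell from 39.9, 125 and 91 CPM to 9.19 and 11 CPM (log2 fold change -3.07 ± 0.47 (SE), adjusted p = 0.0212). Cth, an enzyme that makes cysteine from cystathionine, fell from 17.9, 59.6 and 40.3 CPM to 3.75 and 6.37 CPM (log2 fold change -2.94 ± 0.52 (SE), adjusted p = 0.0308). All 3 vehicle libraries lay above both dox libraries for these genes, and groups did not overlap for 35 of the 36, against 40.6% of all genes tested. Chac1 fell from 51.2, 126 and 88.1 CPM to 20.9 and 17.7 CPM (log2 fold change -2.19 ± 0.36 (SE), adjusted p = 0.0252). Asns fell from 164, 408 and 319 CPM to 82.4 and 75.5 CPM (log2 fold change -1.91 ± 0.36 (SE), adjusted p = 0.0355). The other 2 of the 5 genes did not pass the test. Atf4 was at 479.8, 810 and 639 CPM and 358 and 276 CPM (log2 fold change -1.02 ± 0.25 (SE), adjusted p = 0.0656). Ddit3 was at 29.1, 77.4 and 50.3 CPM and 22.9 and 21.8 CPM (log2 fold change -1.22 ± 0.37 (SE), adjusted p = 0.109). Of marker genes in the same libraries, 1 of 14 myotube genes fell (Myog, -1.42), with a median of -0.59 and all 14 at negative values, and no proliferation (median -0.56) or myoblast gene (median -0.28) was called. Their part in the result was not tested. The count rested on few libraries: it was 0 without vehicle replicate 3, without dox replicate 2 or without dox replicate 3 (33 to 36 genes at an unadjusted p under 0.05 each time), 6 with all groups in 1 fit, and 31 with the replicate number as a block, while the median stayed between -1.68 and -1.22 when single libraries were left out.

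In the myotube-enriched fraction no gene was called with dox, and the median was -0.17. Across all 14113 genes 0% were called lower and 0% higher (edgeR), none of the 36 had an unadjusted p under 0.05, and DESeq2 called none either. Summed levels were 5335, 2986 and 8864 CPM with vehicle and 2129.8, 10867 and 2102 CPM with dox, and the groups overlapped for all 36 genes, while 2.77% of all genes were without overlap. Atf4 was at 484, 348 and 646 CPM with vehicle and 297, 801 and 215 CPM with dox (log2 fold change -0.15 ± 0.51 (SE), adjusted p = 0.998). Asns was at 207, 151 and 424 CPM and 50.1, 491 and 57.5 CPM (log2 fold change -0.38 ± 0.84 (SE), adjusted p = 0.998). Dox replicate 2 was the highest of the 6 libraries for both, and dox replicates 1 and 3 were the lowest for Asns. For Trib3 and Chac1 too, dox replicate 2 was the highest and dox replicates 1 and 3 were the lowest. Trib3 was at 57.8, 9.42 and 122 CPM and 8.61, 205 and 8.43 CPM (log2 fold change 0.23 ± 1.25 (SE), adjusted p = 0.999). Chac1 was at 62.8, 30.4 and 109 CPM and 14.9, 136 and 11.4 CPM (log2 fold change -0.31 ± 0.90 (SE), adjusted p = 0.998). Ddit3 was at 40.4, 15.8 and 70.6 CPM and 34.2, 97.8 and 20 CPM (log2 fold change 0.28 ± 0.66 (SE), adjusted p = 0.998). Without dox replicate 2 the median was -1.42 and no gene was called, with 23 genes at an unadjusted p under 0.05, and without vehicle replicate 3 the median was 0.28.

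With vehicle alone, no difference between the myotube-enriched and the myoblast-enriched fraction was detected: no gene of the 36 was called, 1 was below an unadjusted p of 0.05, DESeq2 called none, and the median was -0.25 (background 0.57% higher and 0.0143% lower of 14023 genes). Atf4 (-0.37 ± 0.28), Ddit3 (-0.30 ± 0.52), Asns (-0.18 ± 0.43), Trib3 (-0.42 ± 0.76) and Chac1 (-0.38 ± 0.46) had negative log2 differences of which none passed the test. Of 14 myotube genes, 2 were called higher in the myotube-enriched libraries, the sarcomere genes Myh3 (1.77) and Ttn (1.66), and the list ran from -0.48 for Myog to 2.30, with a median of 1.36. No proliferation gene was called (median -1.26). All 13 mitochondrially encoded mRNAs had positive values (0.63 to 1.54), of which mt-Nd4l was called. The part of these genes in the comparison was not tested. The test of a difference in dox effect between the fractions called 0% of 15008 genes, with none of the 36 at an unadjusted p under 0.05 and none called by DESeq2, and the median difference over the 36 was 1.19. This median rested on myotube-enriched dox replicate 2: without that library it was 0.05, with 20 genes higher and 16 lower, and without any other single library it lay between 0.89 and 1.63.

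In iCdh23 cells at 48 h, 22 of 36 genes fell with dox and none rose, with a median of -2.17 (background 17% lower and 13% higher of 14227 genes), and the size of the effect rested on vehicle replicate 3. Summed levels were 2253, 2498 and 8383 CPM with vehicle and 1312, 1223 and 1217 CPM with dox. Without vehicle replicate 3, 15 of the 22 remained, 7 were lost, and the median was -0.55. Fgf21 went from 17.8, 39.3 and 144 CPM to 0.0831, 0.323 and 0.285 CPM (log2 fold change -8.11 ± 1.07 (SE), adjusted p = 0.000423), and was at -6.87 without that library. Stc2 went from 1.55, 2.25 and 15.8 CPM to 0.166, 0.0323 and 0.0357 CPM (log2 fold change -6.41 ± 1.27 (SE), adjusted p = 0.0032), and was at -4.62 without it. Gdf15 went from 6.71, 6.32 and 58.6 CPM to 1.87, 1.2 and 1.46 CPM (log2 fold change -4.01 ± 0.97 (SE), adjusted p = 0.00811), and was at -2.13 without it. These 3 secreted signals therefore fell with or without the library, with 2 to 10 counts of Fgf21 and 1 to 4 counts of Stc2 in each dox library. Atf4 also fell both ways, from 222, 294 and 708 CPM to 85.5, 83.1 and 94.8 CPM (log2 fold change -2.22 ± 0.41 (SE), adjusted p = 0.00228), and was at -1.56 without it. The calls of Trib3, Chac1 and Asns were lost without it, and also without any single dox library. Trib3 was at 5.39, 7.22 and 115 CPM with vehicle and 5.07, 5.17 and 5.24 CPM with dox (log2 fold change -3.06 ± 1.13 (SE), adjusted p = 0.046), or -0.30 without the library. Chac1 was at 7.82, 15.8 and 118 CPM and 8.06, 5.98 and 5.96 CPM (log2 fold change -2.84 ± 0.95 (SE), adjusted p = 0.0311), or -0.83 without it. Asns was at 44.3, 59.4 and 413 CPM and 37.7, 43.8 and 37.9 CPM (log2 fold change -2.13 ± 0.80 (SE), adjusted p = 0.0492), or -0.39 without it. Ddit3 was at 16.2, 14 and 54.2 CPM and 17.9, 17.7 and 17.2 CPM (log2 fold change -0.69 ± 0.48 (SE), adjusted p = 0.247), and turned to 0.21 without the library. The other 4 lost calls were of the leucine transporter gene Slc7a5, its partner Slc3a2, the glycine transporter gene Slc6a9 and the stress factor gene Nupr1. Without it 8 genes had positive values, 4 of them at an adjusted p under 0.05 but under 2-fold: Atf3 (0.92), the glutamine transporter gene Slc1a5 (0.86), the mTORC1 inhibitor gene Sesn2 (0.75) and the mitochondrial PEP carboxykinase gene Pck2 (0.72). Myotube genes were lower with dox in the same libraries, with all 14 called and sums of 7155, 9925 and 12969 CPM with vehicle and 52, 62.9 and 183 CPM with dox. All 6 myoblast genes fell (median -2.41). All 12 proliferation genes fell, with sums of 1089, 1167 and 1338 CPM and 92.5, 80.8 and 103 CPM, and the glial gene Mbp fell (-1.60). The part of these markers in the result was not tested.

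**Figure D4:**
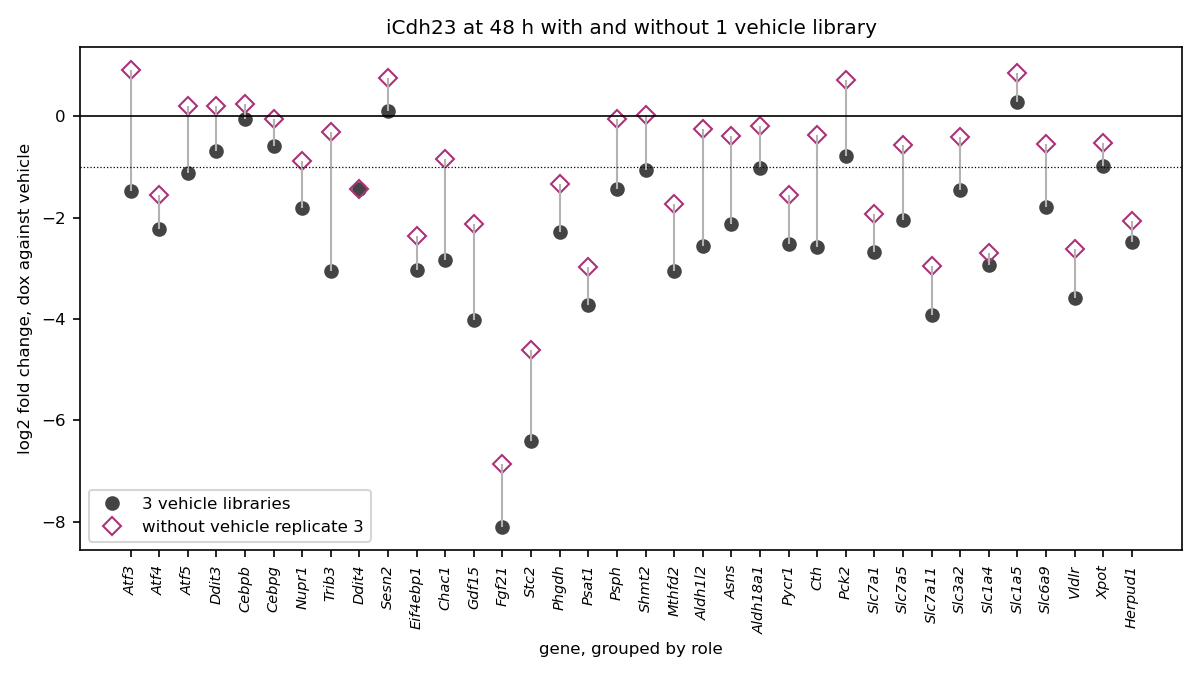
log2 fold change of dox against vehicle in iCdh23 cells at 48 h for each of the 36 genes, from all 3 vehicle libraries (filled circles) and without vehicle replicate 3 (open diamonds). The dotted line marks a 2-fold fall; Fgf21 and Stc2 stay far below it in both, whereas Trib3 moves from -3.06 to -0.30.

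In iMcam cells at 48 h, 12 of 36 genes fell and none rose by over 2-fold, with a median of -0.56 (background 9.85% lower and 6.99% higher of 13731 genes). Summed levels were 2295, 2144 and 2734 CPM with vehicle and 1519, 1476 and 1412 CPM with dox. Stc2 fell from 2.41, 2.54 and 6.56 CPM to 0.392, 0.204 and 0.505 CPM (log2 fold change -3.34 ± 0.53 (SE), adjusted p = 0.00213). Fgf21 fell from 21.9, 17.6 and 46.8 CPM to 2.75, 2.35 and 5.96 CPM (log2 fold change -2.93 ± 0.47 (SE), adjusted p = 0.00221). Slc7a11, the cystine and glutamate exchanger gene, fell from 5.94, 4.41 and 12.9 CPM to 2.01, 1.07 and 0.275 CPM (log2 fold change -2.78 ± 0.63 (SE), adjusted p = 0.00902). No dox library of these genes reached a vehicle library. Without vehicle replicate 3, Atf4 and Asns were at -0.95 and -0.90, still at an adjusted p under 0.05 but under 2-fold, so their calls were lost. Atf4 fell from 242, 228 and 381 CPM to 120.4, 112 and 129 CPM (log2 fold change -1.22 ± 0.19 (SE), adjusted p = 0.00202). Asns fell from 53, 47.9 and 79.3 CPM to 26.5, 26.7 and 27.1 CPM (log2 fold change -1.15 ± 0.18 (SE), adjusted p = 0.00207). The stress effectors of the 5 did not pass the test. Chac1 was at 7.65, 7.28 and 18 CPM and 5.84, 5.11 and 6.06 CPM (log2 fold change -0.94 ± 0.35 (SE), adjusted p = 0.0564). Trib3 was at 5.47, 3.07 and 7.6 CPM and 5, 4.14 and 3.4 CPM (log2 fold change -0.35 ± 0.32 (SE), adjusted p = 0.393). Ddit3 was at 19.1, 15.8 and 12.7 CPM and 23.2, 21.1 and 16.8 CPM (log2 fold change 0.38 ± 0.18 (SE), adjusted p = 0.122). Sesn2 (0.69 ± 0.22), Pck2 (0.55 ± 0.13) and Slc1a5 (0.54 ± 0.13) were higher at an adjusted p under 0.05, by less than 2-fold. Here too myotube (13 of 14), myoblast (5 of 6) and proliferation genes (12 of 12) fell, with myotube sums of 5030.2, 7335 and 12646 CPM with vehicle and 664, 742 and 2136 CPM with dox.

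Tests of the differences between lines at 48 h gave few genes. Between iCdh23 and iMcam, which share no libraries, the dox effect was more negative in iCdh23 for 5 genes and in iMcam for none (background 6.49% of 14552 genes). The largest were Fgf21 (-5.15 ± 1.27, adjusted p = 0.024), Vldlr (-3.92 ± 0.66, adjusted p = 0.00381) and the phosphoserine aminotransferase gene Psat1 (-2.29 ± 0.50, adjusted p = 0.0141). Without iCdh23 vehicle replicate 3 they were -3.91, -2.94 and -1.54 and still called, although the call of Fgf21 was lost without any single iCdh23 dox library, iMcam dox replicate 3 or iMcam vehicle replicate 2. Vldlr was at 26.7, 38.8 and 126 CPM with vehicle and 6.15, 5.49 and 4.57 CPM with dox in iCdh23, and at 21.5, 19.7 and 18.6 CPM and 21.6, 31.1 and 22.9 CPM in iMcam. Psat1 was at 193, 220.1 and 623 CPM and 29.8, 21.3 and 28.1 CPM in iCdh23, and at 193, 185 and 201 CPM and 74.2, 70.1 and 70.7 CPM in iMcam. Between iMyoD1 and iCdh23, 7 genes had the less negative effect in iMyoD1 (background 16.3% of 14825 genes, to which the count was close), led by Fgf21 (4.91 ± 1.12, adjusted p = 0.00444), Slc7a11 (3.67 ± 0.86, adjusted p = 0.00513) and Psat1 (2.42 ± 0.48, adjusted p = 0.00169). Without iCdh23 vehicle replicate 3 these were 3.67, 2.71 and 1.69, but 12 other genes were then called in the opposite direction, 18 in all. Slc7a11 was at 8.19, 11 and 32 CPM with vehicle and 13.4, 18.8 and 11.9 CPM with dox in iMyoD1, with overlap, and at 11.7, 7.42 and 36.9 CPM and 1.16, 1.2 and 1.36 CPM in iCdh23, without it. Between iMyoD1 and iMcam, 10 genes had the more negative effect in iMyoD1 (background 2.44% of 14488 genes), led by Atf3 (-2.85 ± 0.52, adjusted p = 0.00861), Trib3 (-2.10 ± 0.35, adjusted p = 0.00637) and Slc6a9 (-1.65 ± 0.21, adjusted p = 0.00149). Slc6a9 was at 53.9, 59.1 and 48 CPM and 18.7, 17.2 and 20.4 CPM in iMyoD1, and at 20.9, 16.4 and 16 CPM and 22.9, 19.1 and 15.5 CPM in iMcam. None of the 10 was called with all 16 groups in 1 fit, where 6 of the 36 genes had an unadjusted p under 0.05. The comparisons of iMyoD1 with iCdh23 and with iMcam share the iMyoD1 libraries, and both cross deposited tables.

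By role, the secreted signals Fgf21, Gdf15 and Stc2 fell in 6 of the 8 comparisons of dox with vehicle, as did the arginine transporter gene Slc7a1. These were 24, 48 and 120 h in whole iMyoD1 cultures, the myoblast-enriched fraction, iCdh23 and iMcam. A further 10 genes fell in 5 comparisons, among them Asns, Chac1, Psat1, Mthfd2, the proline enzyme gene Pycr1, the translation repressor gene Eif4ebp1 and the transporter genes Slc7a5, Slc1a4 and Slc6a9. Without iCdh23 vehicle replicate 3 the calls of Asns, Chac1, Slc7a5 and Slc6a9 in that line were lost, which left 6 genes with 5 comparisons and the same 4 genes with 6. At the other end, 7 genes passed both thresholds in 1 comparison, that of 120 h whole cultures, although at 24 h all 7 were lower at an adjusted p under 0.05 by less than 2-fold: Atf5, Cebpb, Cebpg, Sesn2, the mitochondrial serine hydroxymethyltransferase gene Shmt2, Slc1a5 and the tRNA exporter gene Xpot. The shares of all genes called lower were 5.14% at 24 h, 8.46% at 48 h and 8.8% at 120 h in iMyoD1, and 1.82% in the myoblast-enriched fraction, 17% in iCdh23 and 9.85% in iMcam. Of the 7 transcription factors 0 to 3 fell in every dox comparison other than that of 120 h whole cultures, where all 7 fell. The 6 serine, glycine and one-carbon enzymes had a median of -0.53 at 24 h and -1.39 at 48 h in iMyoD1, with 0 and 5 called lower, while the 7 transporters had medians of -1.04 and -1.29, with 4 and 5 called lower. Phgdh, the first enzyme of serine synthesis, was at -0.53 ± 0.061 at 24 h, -1.03 ± 0.085 at 48 h and -2.97 ± 0.16 at 120 h on this scale. Psph, the last enzyme of that pathway, was at -0.52 ± 0.053, -1.49 ± 0.11 and -2.66 ± 0.13. Among the other targets the ER protein gene Herpud1 fell in 4 comparisons, with values of -1.39 ± 0.079 at 48 h, -2.46 ± 0.11 at 120 h, -1.24 ± 0.23 in the myoblast-enriched fraction and -2.47 ± 0.30 in iCdh23. Aldh18a1, an enzyme of proline synthesis, was at -1.17 ± 0.094 at 48 h and -2.22 ± 0.12 at 120 h.

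Genes of neighbouring pathways were counted in the same way, beside the same shares of all genes called lower, with 1.36% at 0 h. The shares called higher were 2.91% at 0 h, 8.03% at 24 h, 5.93% at 48 h and 7.32% at 120 h in iMyoD1, 1.21% in the myoblast-enriched fraction, 13% in iCdh23 and 6.99% in iMcam. Cytosolic aminoacyl-tRNA synthetase genes, several of which are known ATF4 targets, also fell in part: of 20, none fell at 0 h, Rars fell at 24 h (-1.14), 7 fell at 48 h, led by Nars (-1.38) and Iars (-1.36), and 14 at 120 h, led by Sars (-2.16) and Wars (-1.92). Their summed level at 120 h was 8018, 7946 and 8060.5 CPM with vehicle and 3233, 3304 and 3294 CPM with dox. In iCdh23 12 of the 20 fell, led by Nars (-1.82) and Gars (-1.56), and 3 without vehicle replicate 3 (Nars then at -1.04 and called, Gars at -0.94 and not called), whereas none was called in iMcam or in either fraction. The 1 of 20 at 24 h and the 3 of 20 in iCdh23 without that library were not above the shares of all genes, the latter from all libraries. The library that stood apart in iCdh23 was also highest in this list, at 2743, 2998 and 5945 CPM over the 3 vehicle libraries. Of 20 ER chaperone and unfolded protein response genes, 1 was called at 24 h, 4 at 120 h and 1 in iCdh23, and none at 0 h, at 48 h, in either fraction or in iMcam. The counts at 24 and 120 h were close to the shares of all genes. At 24 h it was Hspa5, the main ER chaperone gene (-1.03), at 120 h Sel1l (-1.23) and Atf6 (-1.22) fell and Sdf2l1 rose (1.03), and in iCdh23 it was Dnajb9 (-1.12). Without iCdh23 vehicle replicate 3, 3 ER genes were called there, with Dnajb9 (-1.13) and Manf (-1.06) lower and Ern1 (1.08) higher. Of 14 genes for eIF2 alpha, its kinases and their regulators, its exchange factor and its phosphatases, the phosphatase subunit gene Ppp1r15a fell at 24 h (-1.28) and 120 h (-2.91), and the kinase gene Eif2ak2 rose at 120 h (1.62) and in iCdh23 (1.19, or 1.12 without vehicle replicate 3), where Eif2s1 fell (-1.15, or -1.12). These counts of 1 gene in a direction lay near or below the shares of all genes. Of 10 mitochondrial stress genes, the chaperone genes Hspd1 (-1.22) and Hspe1 (-1.07) fell at 24 h, 3 fell at 120 h, led by the protease gene Lonp1 (-1.71) and Hspa9 (-1.49), and Hspa9 also fell at 48 h in iMyoD1 (-1.05), iCdh23 (-2.25, or -1.85 without vehicle replicate 3, when Hspe1 was also called at -1.06) and iMcam (-1.25), where 1 gene of 10 was near or below the shares of all genes. In vehicle from 0 to 24 h, 9.49% of all genes were higher and 16.7% lower. Of the 14 eIF2 genes 4 rose, led by Ppp1r15a (4.57) and Eif2b3 (2.33). Of the 10 mitochondrial stress genes 5 rose, led by Lonp1 (2.06) and Hspa9 (1.60). Of the ER genes Dnajb9 rose (1.08) and Pdia6 fell (-1.04). From 24 to 48 h, across the batch, 7 synthetase, 4 eIF2, 4 mitochondrial stress and 1 ER gene fell and none rose. The shares of all genes were 11.1% lower and 19.3% higher. From 48 to 120 h, 5 synthetase, 1 eIF2, 2 mitochondrial stress and 4 ER genes rose and 3 ER genes fell. The shares of all genes were then 11.7% higher and 18.1% lower. Of 13 mitochondrially encoded mRNAs none was called between dox and vehicle in iMyoD1 whole cultures, while mt-Nd3 rose in the myoblast-enriched fraction (1.19) and mt-Nd1 fell in iCdh23 (-1.08, or -0.98 and not called without vehicle replicate 3).

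**Figure D5:**
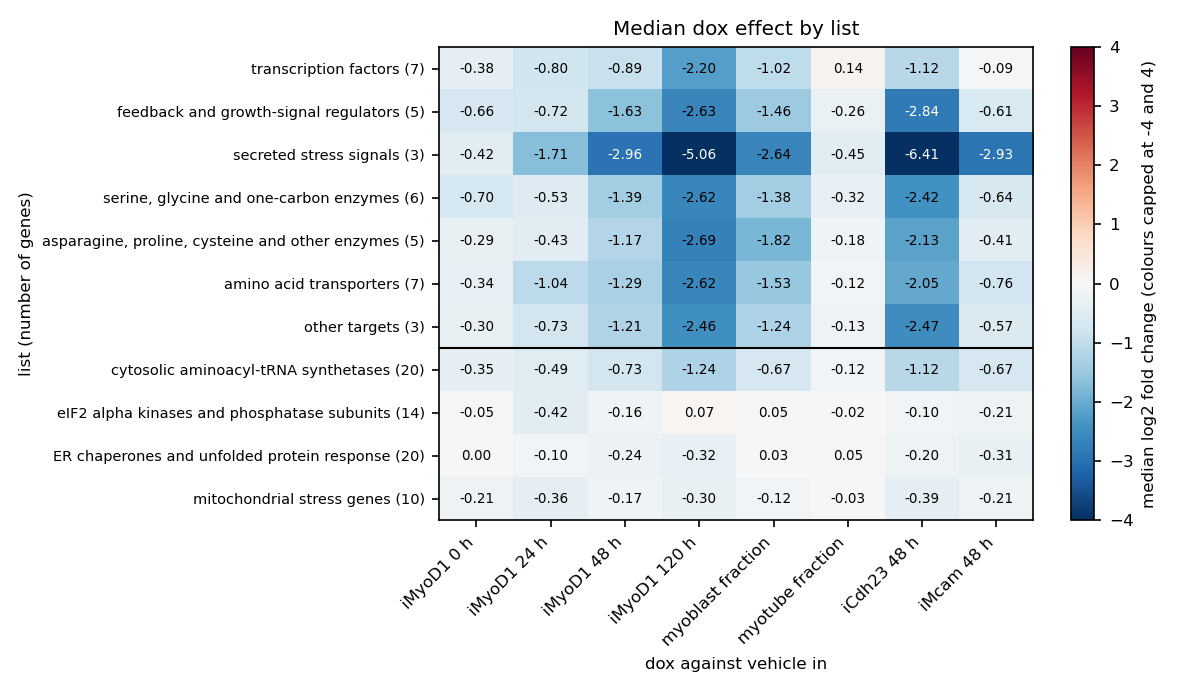
Median log2 fold change of dox against vehicle for 7 roles within the ATF4 program (above the line) and 4 neighbouring lists (below), in 8 comparisons, with the number of genes in each list in brackets. Colours run from blue (lower with dox) to red (higher); medians of the 7 roles lie between -2.20 and -5.06 at 120 h in whole cultures, where ER chaperones have a median of -0.32.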

How the data were processed

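PolyA RNA-seq of 47 libraries in 16 groups was used as deposited: 3 tables of estimated counts per transcript, made by the authors with nf-core/rnaseq 3.18.0 and salmon on mm10 per the labels and the study's methods. Estimated counts were summed by gene, of which 45143 of 45706 identifiers had a symbol, and rounded, and 0 columns of samples were left unused. Each comparison was fitted with edgeR 4.0.16 in R 4.3.3 (filterByExpr, TMM, quasi-likelihood F test, Benjamini-Hochberg adjustment over all genes tested) on the libraries of its 2 groups, or 4 groups for a difference between dox effects. A gene was called at an adjusted p under 0.05 and over 2-fold, and standard errors are the log2 fold change divided by the square root of F. Levels are CPM with TMM factors over all 47 libraries. The share of all genes without overlap between groups was counted for dox against vehicle at 120 h only. Elsewhere lack of overlap is given without such a background. Depth was 15066338 to 50950674 counts per library, groups with no library over 3 counts of a gene were held to be at the floor for it, and intervals cover counting error only.

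Atf4, Ddit3, Asns, Trib3 and Chac1 were named in each comparison with up to 3 called genes of largest change in each direction (either sign for differences), and up to 2 per direction of each other list. Others named in counts of 5 or fewer and in the account by role were chosen after their values were seen. Members and lists were chosen with earlier results of these data known. Other analyses used 1 fit of all groups, a replicate block, DESeq2 1.42.0, RLE in place of TMM or all genes unfiltered, or left out each library in turn. A replicate number may mark a shared culture. Correlations of same-numbered libraries were over 0.1 for every pair in iMcam (0.227 to 0.419) and the vehicle fractions (0.117 to 0.413). The same held for dox against vehicle in the myoblast-enriched fraction (0.432 for replicate 2 and 0.3 for replicate 3). These comparisons count as paired from the data. Across 46 replicate pairs chi-square per gene was 3.039 to 410.5, so no pair was 1 library deposited under 2 names. The fits were tested on simulated counts in which 200 genes differed 4-fold, and edgeR found 200 in iMyoD1 at 48 h (of 13871 genes, 3 false calls), 199 in the myoblast-enriched fraction (of 14249, 3 false) and 198 for iCdh23 against iMcam (of 14552, 5 false). The changed genes were drawn from well-counted genes, and no simulated library was made to stand apart. Recovery at low counts, or with a library that stands apart, was not tested. P-values measure the spread between the libraries of this series. The smallest exact permutation p for 3 against 3 is 0.1, so no such test was used. Gene positions came from GENCODE annotation of GRCm38, and promoters from RefSeq (GRCm38.p6).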

Additional observations from a re-analysis of the deposited data

Results flagged for a closer look

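Dox effects that differed between groups by a test of the difference itself (edgeR quasi-likelihood interaction, Benjamini-Hochberg adjusted p under 0.05 and a difference over 1 in log2 fold change) were found in 5 of 6 contrasts. Between 24 and 0 h in iMyoD1, 3 genes differed, with values of -3.66 for Atf3, -1.73 for Stc2 and -1.02 for Vldlr (background 5.47% of all genes, and 0 of the 36 called with all groups in 1 fit). Between 48 and 24 h, a step across the batch, 8 genes differed, led by Trib3 (-1.79), Mthfd2 (-1.7) and Chac1 (-1.69), against 13.2% of all genes. Between iCdh23 and iMcam 5 genes differed, led by Fgf21 (-5.15), Vldlr (-3.92) and Psat1 (-2.29), against 6.49% of all genes. Between iMyoD1 and iCdh23 7 genes differed, led by Fgf21 (4.91), Slc7a11 (3.67) and Psat1 (2.42), against 16.3% of all genes, and without iCdh23 vehicle replicate 3 6 genes were called this way and 12 the other way. Between iMyoD1 and iMcam 10 genes differed, led by Atf3 (-2.85), Trib3 (-2.1) and Slc6a9 (-1.65), against 2.44% of all genes. The counts for 24 against 0 h and for iMyoD1 against iCdh23 were close to the shares of all genes. Negative values mean a more negative dox effect in the group named first.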

How the results depend on the processing

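With all 16 groups in 1 fit, the number of the 36 genes called was 0 at 0 h (2 in the report), 5 at 24 h (12), 6 in the myoblast-enriched fraction (21), and 0 for the differences between 24 and 0 h (3), 48 and 24 h (8), and iMyoD1 and iMcam (10). Leaving out single libraries gave 1 to 2 called at 0 h, 0 to 30 in the myoblast-enriched fraction, 2 to 5 for 24 against 0 h (5 without 0 h vehicle replicate 3), 4 to 8 for iCdh23 against iMcam (8 without iCdh23 vehicle replicate 1), and 5 to 18 for iMyoD1 against iCdh23 (18 without iCdh23 vehicle replicate 3). The other counts of called genes stayed within 1.5 times, and all 36 were called lower at 120 h in whole cultures under each alternative. With the replicate block, 31 genes were called in the myoblast-enriched fraction (21 without), 16 in iCdh23 (22 without, and Asns, Trib3 and Chac1 lost their calls) and 4 for 24 against 0 h (3 without). Of the comparisons held to be paired, the count in the myoblast-enriched fraction thus moved. Those in iMcam (12) and between vehicle fractions (0) did not change. Of 1227 alternative values for named genes, 1128 kept direction and side of the threshold, 69 lost the call, 10 gained one and 20 reversed. The reversals concerned values that were not called. With single libraries left out, log2 fold changes in the myotube-enriched fraction ran from -0.90 to 0.15 for Atf4, -0.59 to 0.86 for Ddit3, -2.23 to 0.16 for Asns, -2.85 to 1.13 for Trib3 (-1.65 with the replicate block) and -2.32 to 0.22 for Chac1. Ddit3 in iCdh23 ran from -1.02 to 0.21, and between vehicle fractions Ddit3 ran from -0.88 to 0.10, Asns from -0.71 to 0.11 and Trib3 from -1.32 to 0.09. The median of all genes moved by over 0.1 in 1 case, by -0.125 (no filter, from -0.028 to -0.153) for 120 against 48 h in vehicle. The causes were not tested. Depth limits Fgf21 and Atf3 at 0 h, and Stc2 and Gdf15 with dox.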
